A study of Mus musculus with 12 samples.

Results

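The LIF receptor and STAT3 pathway carries the signal of leukemia inhibitory factor (LIF) into mouse embryonic stem cells, and the mRNAs of its core genes were read on ribosomes labelled at the endoplasmic reticulum (ER) and in the cytosol. The 6 genes were taken by name: the ligand Lif, the receptor chains Lifr and Il6st, the kinase Jak1, the transcription factor Stat3 and the feedback inhibitor Socs3. They are 6 of the 55416 genes listed in the count files, and all 6 passed the filter on low counts that left 16221 genes for testing. All cells were of the Rpl31-FTA E14Tg2a.4 mESC line, mouse embryonic stem cells whose large-subunit protein Rpl31 is fused to FLAG, to a cleavage site for TEV protease and to an AviTag. All were transfected with plasmids for the N- and C-terminal fragments of ALIBi, a split system that biotinylates tagged ribosomes near a chosen place in the cell. The 4 groups, with 3 biological replicates each, were ribosome-bound RNA with ER targeting, ribosome-bound RNA with cytosol targeting, whole-cell RNA of ER-targeted cells and whole-cell RNA of cytosol-targeted cells. Each group was grown with mouse LIF at 1000 U/mL in serum medium and lysed in cycloheximide at 100 µg/mL, so every library comes from cells under LIF and none from cells without it. No library here is labelled with an siRNA, although the design text speaks of one. Replicates are labelled biological, but no separate cultures are named, so a p-value reflects only how far these samples spread.

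LIF is a secreted cytokine that binds the LIF receptor chain (Lifr) and draws in the shared signalling chain gp130 (Il6st). Both chains span the plasma membrane once and have no kinase of their own: Janus kinases such as Jak1 sit on their cytoplasmic tails and phosphorylate them. Stat3 docks on the phosphorylated tails, is phosphorylated, enters the nucleus and holds mouse embryonic stem cells in self-renewal, and one of its targets, Socs3, binds gp130 and Jak kinases and shuts the signal down. Ligand and receptor chains begin with a signal peptide, which brings a translating ribosome to the ER membrane, whereas the kinase, the STAT and the inhibitor are made as soluble proteins.

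The start of each coding sequence is shown because it encodes the part that a signal peptide would occupy. The sequences are from the GENCODE M21 transcripts (GRCm38), coding strand, 5′ to 3′, and capitals mark the codons of the most hydrophobic window of 11 residues within the first 50 where its mean Kyte-Doolittle hydropathy reached 1.8. For the receptor chains a further line gives the window of 19 residues that reached a mean of 1.6, the membrane segment, in capitals, with 15 bases on each side. Lifr lies on chromosome 15, Il6st on 13, Jak1 on 4, and Lif, Stat3 and Socs3 on 11.
Lifr, first 150 coding bases: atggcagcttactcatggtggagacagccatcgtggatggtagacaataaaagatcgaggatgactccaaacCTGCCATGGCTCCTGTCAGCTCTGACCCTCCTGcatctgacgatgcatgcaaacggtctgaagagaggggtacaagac
Il6st, first 150 coding bases: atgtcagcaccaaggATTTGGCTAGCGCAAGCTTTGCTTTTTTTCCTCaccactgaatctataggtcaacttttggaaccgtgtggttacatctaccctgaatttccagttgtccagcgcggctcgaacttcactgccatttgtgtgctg
Lif, first 150 coding bases: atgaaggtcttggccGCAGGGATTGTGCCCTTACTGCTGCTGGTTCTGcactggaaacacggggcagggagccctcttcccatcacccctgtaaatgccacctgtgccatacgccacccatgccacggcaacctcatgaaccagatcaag
Jak1, first 150 coding bases: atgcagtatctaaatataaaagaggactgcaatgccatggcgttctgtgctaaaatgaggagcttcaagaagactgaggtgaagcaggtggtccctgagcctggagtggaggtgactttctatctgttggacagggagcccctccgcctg
Stat3, first 150 coding bases: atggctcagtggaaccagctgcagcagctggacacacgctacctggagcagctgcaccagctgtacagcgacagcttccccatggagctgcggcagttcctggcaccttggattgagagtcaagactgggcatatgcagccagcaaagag
Socs3, first 150 coding bases: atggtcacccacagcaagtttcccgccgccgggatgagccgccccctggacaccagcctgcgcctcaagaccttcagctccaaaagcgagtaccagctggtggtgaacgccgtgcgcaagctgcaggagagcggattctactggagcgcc
Lifr, membrane segment: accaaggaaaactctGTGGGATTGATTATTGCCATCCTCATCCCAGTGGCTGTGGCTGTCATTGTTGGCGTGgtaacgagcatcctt
Il6st, membrane segment: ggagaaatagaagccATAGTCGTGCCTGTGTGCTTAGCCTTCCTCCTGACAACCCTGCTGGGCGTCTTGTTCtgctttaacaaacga

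The N-terminal window lay at residues 25 to 35 of the 1092-residue Lifr protein, with a mean hydropathy of 1.87 just over the threshold, at residues 6 to 16 of the 917-residue Il6st protein with 2.23, and at residues 6 to 16 of the 203-residue Lif protein with 2.88. The membrane segment was at residues 829 to 847 of Lifr and 619 to 637 of Il6st, the only further segment in each. Jak1 (1153 residues), Stat3 (770 residues) and Socs3 (225 residues) had neither, and the highest N-terminal windows among them reached 0.75, 0.42 and 0.48.

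The libraries held 21.1 to 26.9 M reads (M for mega) counted in genes. Stem cell markers were read throughout: all 8 of Pou5f1, Nanog, Sox2, Zfp42, Esrrb, Tdgf1, Dppa5a and Klf2 passed the filter, and their summed level was 12800 to 13400 counts per M reads (CPM) on ER-labelled ribosomes, 10300 to 10500 CPM on cytosol-labelled ribosomes and 8300 to 8640 CPM in all whole-cell libraries. The larger ER sum rests on Tdgf1, whose mean there was 4650 CPM, beside 1280 CPM in the cytosol pool. Between these pools 1 of the 8 markers was called higher at the ER and 4 lower, with a median log2 ratio of -0.16. Of all tested genes 29.1% were called higher and 24.6% lower there. The 6 fibroblast markers, of which 4 passed the filter, summed to 73.1 to 77.4 CPM on ER-labelled ribosomes against 22.1 to 25.2 CPM on cytosol-labelled ones, and to 22.2 to 23.9 CPM in ER whole-cell against 22.6 to 25.1 CPM in cytosol whole-cell RNA. Most of that sum is Thy1 and Col1a1, which encode secretory proteins, while Lum was at 0 in 3 groups. Markers of endoderm, mesoderm and neural cells summed to at most 15.4, 4.65 and 77.2 CPM in any library. All levels below are CPM on library sizes scaled by the trimmed mean of M values (TMM), and in pooled cells fewer cells with an mRNA and less of it per cell cannot be told apart.

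The comparison of ER-labelled with cytosol-labelled ribosomes asks which mRNAs are translated at the ER membrane. The ligand and both receptor chains were higher on ER-labelled ribosomes, Lifr by 3.79-fold, Il6st by 3.05-fold and Lif by 1.41-fold. Jak1 and Stat3 did not pass the test, and Socs3 passed it with the smallest of the 4 called changes, 1.15-fold. Of the 6 genes 4 were called higher and 0 lower at an adjusted p of 0.05, where 29.1% of all tested genes were called higher and 24.6% lower (53.6% either way).

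Lif, the ligand, was the scarcest of the 6. Its level on ER-labelled ribosomes was 7.78, 8.66 and 6.33 CPM in replicates 1, 2 and 3, against 5.85, 4.80 and 5.58 CPM on cytosol-labelled ribosomes, from 139 to 218 reads and 124 to 156 reads per library. The lowest ER library lay above the highest cytosol library, by a margin smaller than the spread among the ER libraries. The log2 ratio was 0.49 (SE 0.116, adjusted p = 0.000434 in the quasi-likelihood test of edgeR, with the Benjamini-Hochberg method over all tested genes). Leaving out ER ribosome-bound replicate 2 gave the lowest ratio, 0.32, still past the threshold.

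Lifr, the chain that binds LIF first, had 147, 141 and 144 CPM on ER-labelled ribosomes, against 39.6, 34.8 and 39.4 CPM on cytosol-labelled ribosomes. The 2 sets of libraries were far apart, and the 3 ER libraries differed among themselves by only a few CPM. The log2 ratio was 1.92 (SE 0.0472, edgeR adjusted p = 7.29e-29), above that of 95.6% of the tested genes.

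Il6st, the gp130 chain shared by the whole interleukin-6 family, had 166, 152 and 178 CPM on ER-labelled ribosomes, against 51.5, 55.2 and 55.8 CPM on cytosol-labelled ribosomes. Here too no library of one pool came near those of the other. The log2 ratio was 1.61 (SE 0.0516, edgeR adjusted p = 2.55e-25), at the 90.6th percentile of the tested genes.

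Jak1, the kinase, had 68.6, 69.9 and 64.9 CPM on ER-labelled ribosomes, against 66.2, 62.0 and 66.5 CPM on cytosol-labelled ribosomes, and the groups overlapped. Its log2 ratio was 0.06 with a 95% interval from -0.02 to 0.15 (edgeR adjusted p = 0.233). Exons of Jak1 overlap those of Raver2 on the other strand, which held 18076 reads to 23654 of Jak1 over all libraries. The strand setting of the authors' counting is not given in the sources used here, so the Jak1 count may miss or hold reads of its neighbour.

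Stat3 had 77.2, 85.4 and 72.0 CPM on ER-labelled ribosomes, against 81.9, 66.8 and 72.8 CPM on cytosol-labelled ribosomes. The groups overlapped, with a log2 ratio of 0.09 and an interval from -0.04 to 0.21 (edgeR adjusted p = 0.293). Its exons overlap those of Stat5a on the other strand, whose 3597 reads over all libraries compare with 22769 of Stat3. When the libraries were scaled to 81 cytosolic housekeeping genes in place of all genes, Jak1 and Stat3 did pass the test, with log2 ratios of 0.16 and 0.18, and Stat3 also passed it without cytosol ribosome-bound replicate 1, with 0.16.

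Socs3, the feedback inhibitor, had 129, 161 and 129 CPM on ER-labelled ribosomes, against 125, 110 and 130 CPM on cytosol-labelled ribosomes. Replicate 2 was the highest of the ER libraries and the lowest of the cytosol ones, and the groups overlapped. The log2 ratio was 0.20 (SE 0.0706, edgeR adjusted p = 0.0161). It became 0.02 without ER ribosome-bound replicate 2 and 0.07 without cytosol ribosome-bound replicate 2, and neither passed the test. Nor did it pass without ER whole-cell replicate 2 or 3 or any 1 of the 3 cytosol whole-cell replicates (0.14 in each case). These libraries enter only through the shared scaling and spread. Leaving out any 1 of them shifted the median ratio of all genes by -0.061 or -0.062. The call for Socs3 therefore depends on which libraries are included and on the scaling.

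**Figure D1:**
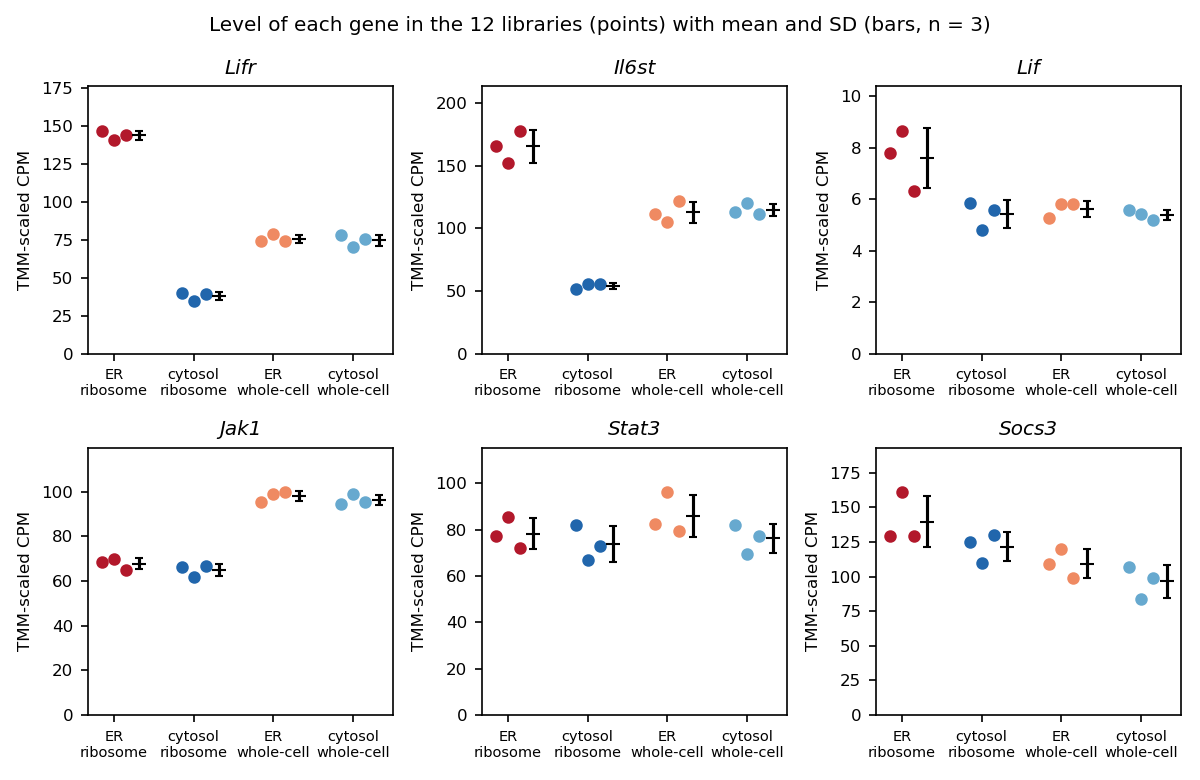
TMM-scaled CPM (linear axis from 0) of the 6 genes in each of the 12 libraries, as points by group, with the mean and SD of 3 replicates beside them. The ER ribosome-bound points of Lifr (141 to 147 CPM) and Il6st (152 to 178 CPM) lie above all others and the cytosol ribosome-bound points (34.8 to 39.6 and 51.5 to 55.8 CPM) below all others, whereas Jak1 is lower on both sets of ribosomes than in whole-cell RNA.

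Ratios of 2 genes within a library do not depend on how libraries are scaled. The count of Lifr over that of Jak1 was 2.14, 2.02 and 2.22 on ER-labelled ribosomes, against 0.599, 0.562 and 0.593 on cytosol-labelled ribosomes, a 3.64-fold difference. Whole-cell libraries lay between, at 0.779, 0.795 and 0.743 with ER targeting against 0.826, 0.713 and 0.787 with cytosol targeting. Il6st over Jak1 was 2.43, 2.18 and 2.75 on ER-labelled ribosomes, against 0.778, 0.890 and 0.839 on cytosol-labelled ribosomes. The receptor chains thus outnumbered the kinase in reads on ER-labelled ribosomes and were outnumbered by it on cytosol-labelled ones. Over Stat3, Lifr differed 3.58-fold and Il6st 2.88-fold between the pools, and over Jak1 Il6st differed 2.92-fold. In these 4 ratios, and in Lifr over Il6st, the groups did not overlap, and the exact two-sided permutation p was 0.1, the smallest that 3 against 3 libraries can give.

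The receptor chains were also set against each other. Lifr over Il6st was 0.882, 0.929 and 0.807 on ER-labelled ribosomes, against 0.770, 0.631 and 0.707 on cytosol-labelled ribosomes, a log2 difference of 0.31 (exact permutation p = 0.1). In whole-cell RNA it was 0.609 to 0.748 with ER targeting, against 0.589 to 0.689 with cytosol targeting. Jak1 over Stat3 showed no separation, with a log2 difference of -0.02 (exact permutation p = 0.6), and Socs3 over Stat3 gave 0.11 (exact permutation p = 0.2). These were 7 comparisons in all, none of which can reach 0.05 at this number of libraries.

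**Figure D2:**
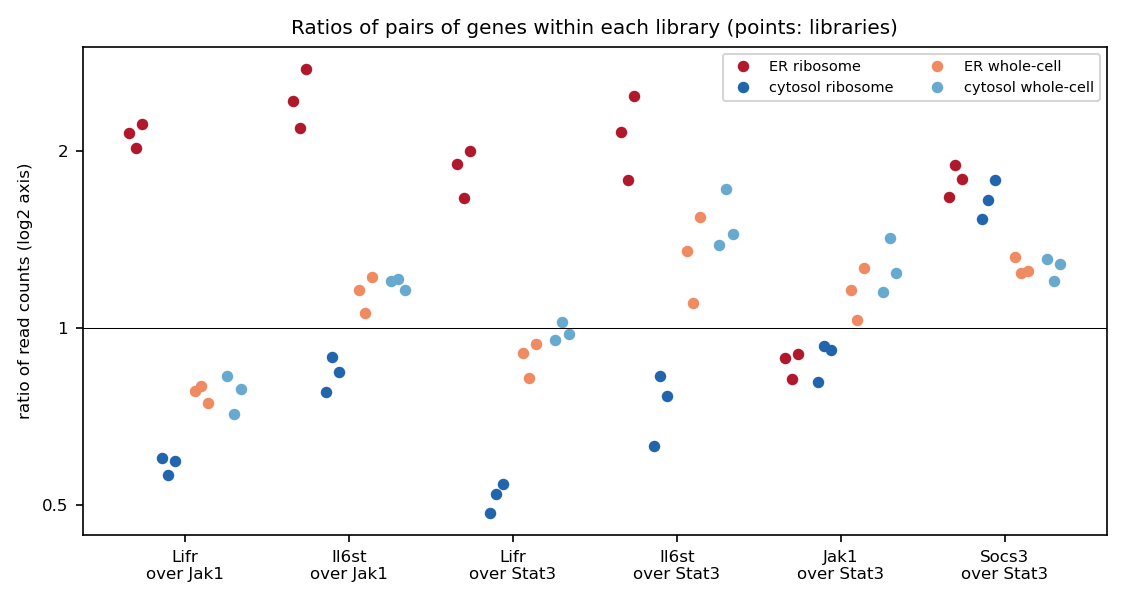
Ratio of read counts between 2 genes within each library (log2 axis), 3 libraries a group, for 6 of the 7 pairs compared. Lifr over Jak1 lies at 2.02 to 2.22 in ER ribosome-bound and 0.562 to 0.599 in cytosol ribosome-bound libraries, with whole-cell libraries between, while Jak1 over Stat3 overlaps between both ribosome-bound groups.

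Per the design text, whole-cell RNA was taken from the lysates that went into the affinity purification, though no label says that equal replicate numbers mark 1 lysate. It is the input against which the level of each mRNA in each labelled pool was set. On ER-labelled ribosomes Lifr, Il6st, Lif and Socs3 were higher than in ER whole-cell RNA and Jak1 was lower. These are 4 genes called higher and 1 lower, where 32.5% of all tested genes were called higher and 30.6% lower (63.1% either way). On cytosol-labelled ribosomes Lifr, Il6st and Jak1 were lower than in cytosol whole-cell RNA and Socs3 was higher. In that comparison 1 gene was called higher and 3 lower, against 20.8% of all tested genes higher and 33% lower (53.9% either way).

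For the receptor chains the pools moved in opposite directions from whole-cell RNA. Lifr averaged 144 ± 2.59 CPM on ER-labelled ribosomes and 75.8 ± 2.63 CPM in ER whole-cell RNA (SD, n = 3 each), a log2 ratio of 0.93 (SE 0.0445, edgeR adjusted p = 7.96e-20). It averaged 38.0 ± 2.71 CPM on cytosol-labelled ribosomes and 74.6 ± 3.78 CPM in cytosol whole-cell RNA (SD, n = 3 each), a log2 ratio of -0.97 (SE 0.0491, edgeR adjusted p = 1.24e-18). On the log2 scale the level on ER-labelled ribosomes was nearly as far above its input as that on cytosol-labelled ribosomes was below its own, and no library of a ribosome-bound group overlapped its input.

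Il6st averaged 166 ± 13.0 CPM on ER-labelled ribosomes and 113 ± 8.34 CPM in ER whole-cell RNA (SD, n = 3 each), a log2 ratio of 0.55 (SE 0.0488, edgeR adjusted p = 2.38e-12). On cytosol-labelled ribosomes it averaged 54.2 ± 2.32 CPM and in cytosol whole-cell RNA 115 ± 4.55 CPM (SD, n = 3 each), a log2 ratio of -1.08 (SE 0.0524, edgeR adjusted p = 3.89e-19). Its depletion from the cytosol pool was among the strongest 2.9% of the tested genes, and its enrichment on ER-labelled ribosomes was at the 74.9th percentile.

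Lif averaged 7.59 ± 1.18 CPM on ER-labelled ribosomes and 5.63 ± 0.314 CPM in ER whole-cell RNA (SD, n = 3 each), a log2 ratio of 0.44 (SE 0.118, edgeR adjusted p = 0.00148). On cytosol-labelled ribosomes it averaged 5.41 ± 0.547 CPM and in cytosol whole-cell RNA 5.38 ± 0.204 CPM (SD, n = 3 each), a log2 ratio of 0.01 with an interval from -0.23 to 0.25 (edgeR adjusted p = 0.964). The ligand was therefore higher on ER-labelled ribosomes without passing the test for a fall in the cytosol pool, and its interval there lies above the -0.97 and -1.08 of the receptor chains.

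Jak1 was lower on both sets of ribosomes by nearly the same amount. It averaged 67.8 ± 2.62 CPM on ER-labelled ribosomes and 98.1 ± 2.29 CPM in ER whole-cell RNA (log2 ratio -0.53, SE 0.0423, edgeR adjusted p = 1.38e-13), and 64.9 ± 2.51 CPM on cytosol-labelled ribosomes and 96.3 ± 2.38 CPM in cytosol whole-cell RNA (log2 ratio -0.57, SE 0.0419, edgeR adjusted p = 4.74e-14; SD, n = 3 each). The groups did not overlap in either case. With cytosolic scaling, which raised the median ratio of all genes to whole-cell RNA by 0.248 for ER-labelled and 0.137 for cytosol-labelled ribosomes, the ratios were -0.28 and -0.43 and still passed the test.

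Stat3 averaged 78.2 ± 6.73 CPM on ER-labelled ribosomes and 85.9 ± 9.04 CPM in ER whole-cell RNA (log2 ratio -0.13, interval -0.26 to 0, edgeR adjusted p = 0.0876), and 73.8 ± 7.58 CPM on cytosol-labelled ribosomes and 76.2 ± 6.33 CPM in cytosol whole-cell RNA (log2 ratio -0.05, interval -0.18 to 0.08, edgeR adjusted p = 0.579; SD, n = 3 each). Both pairs of groups overlapped. By replicate number the ER ribosome-bound library was the lower one each time, with 77.2, 85.4 and 72.0 CPM against 82.3, 96.2 and 79.2 CPM in ER whole-cell RNA. The first ratio passed the test as a fall with a block for the lysate (-0.13, edgeR adjusted p = 0.00223), with no filter (-0.13) and with 2 groups only (-0.14), as it did without ER ribosome-bound replicate 2 (-0.20) or without ER whole-cell replicate 3 (-0.19). It was 0.12, not past the threshold, with cytosolic scaling, so no direction is given for Stat3.

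Socs3 was higher on both sets of ribosomes than in whole-cell RNA. It averaged 140 ± 18.6 CPM on ER-labelled ribosomes and 109 ± 10.3 CPM in ER whole-cell RNA (log2 ratio 0.36, SE 0.0718, edgeR adjusted p = 3.9e-05), and 122 ± 10.0 CPM on cytosol-labelled ribosomes and 96.5 ± 12 CPM in cytosol whole-cell RNA (log2 ratio 0.33, SE 0.0723, edgeR adjusted p = 0.000167; SD, n = 3 each). Ribosome-bound and whole-cell libraries did not overlap with either target, and all 21 alternatives kept both calls, with ratios of 0.24 to 0.61 on ER-labelled and 0.29 to 0.47 on cytosol-labelled ribosomes.

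**Figure D3:**
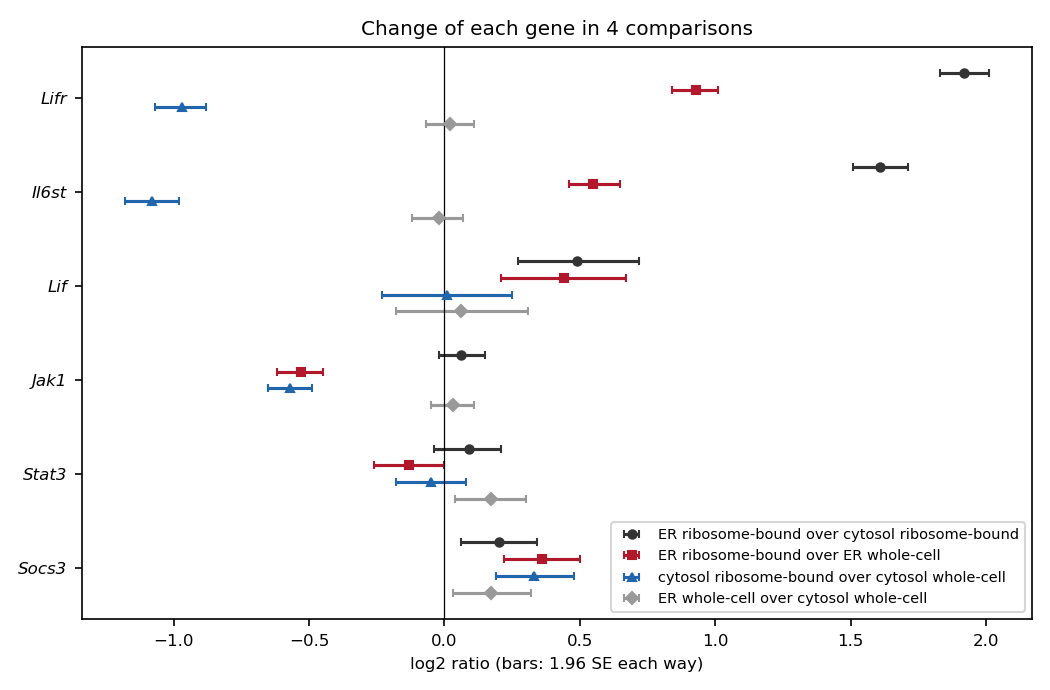
Log2 ratios of the 6 genes in 4 comparisons, with approximate 95% intervals from the fitted SE. Lifr and Il6st lie right of 0 on ER-labelled ribosomes over whole-cell RNA (0.93 and 0.55) and left of 0 on cytosol-labelled ribosomes (-0.97 and -1.08), Jak1 lies left in both (-0.53 and -0.57), Socs3 right in both (0.36 and 0.33), and the whole-cell groups differ little from each other.

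The difference between both enrichments, ER minus cytosol, was tested as an interaction in the same fit. It was 1.9 for Lifr (SE 0.0662, edgeR adjusted p = 8.23e-24), 1.63 for Il6st (SE 0.0716, edgeR adjusted p = 7.9e-21) and 0.43 for Lif (SE 0.17, edgeR adjusted p = 0.0386). These 3 genes were called higher and 0 lower, where 24.8% of all tested genes were called higher and 18.6% lower (43.4% either way). For Jak1 the difference was 0.04 (interval -0.08 to 0.15), for Stat3 -0.08 (interval -0.27 to 0.10) and for Socs3 0.03 (interval -0.17 to 0.23), none past the threshold. Lif lost its call without ER ribosome-bound replicate 1 (0.36) or 2 (0.27), cytosol ribosome-bound replicate 2 (0.30), ER whole-cell replicate 1 (0.38), 2 (0.40) or 3 (0.40), or cytosol whole-cell replicate 1 (0.35), 2 (0.38) or 3 (0.41).

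The whole-cell groups show whether the choice of ALIBi target changed the pathway's mRNAs themselves. None of the 6 genes passed the test between ER and cytosol whole-cell RNA, nor did any of the 16221 tested genes (0%) by edgeR, with 634 at an unadjusted p under 0.05 and 0 called by DESeq2. The log2 ratios were 0.02 for Lifr, -0.02 for Il6st, 0.06 for Lif, 0.03 for Jak1 and 0.17 for Stat3 and Socs3. The intervals for Lifr and Il6st, -0.07 to 0.11 and -0.12 to 0.07, are narrow beside their differences between ribosome pools. For Stat3 and Socs3 the unadjusted p was 0.0157 and 0.024 in edgeR's test, and the adjusted p 0.998.

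Levels of different genes are compared here per kilobase of annotated exon. On ER-labelled ribosomes the order was Socs3 with 48.3 ± 6.44 CPM per kilobase, Il6st with 14.9 ± 1.17, Lifr with 13.4 ± 0.241, Jak1 with 9.38 ± 0.363, Stat3 with 8.21 ± 0.707 and Lif with 1.75 ± 0.27 (SD, n = 3 here and below). On cytosol-labelled ribosomes Socs3 led with 42.1 ± 3.47 CPM per kilobase, but Jak1 (8.98 ± 0.347) and Stat3 (7.75 ± 0.796) stood above Il6st (4.88 ± 0.209), Lifr (3.52 ± 0.251) and Lif (1.24 ± 0.126). ER whole-cell RNA had Socs3 at 37.8 CPM per kilobase, Jak1 at 13.6, Il6st at 10.2, Stat3 at 9.02, Lifr at 7.03 and Lif at 1.29, and cytosol whole-cell RNA 33.4, 13.3, 10.3, 8, 6.92 and 1.24 in the same order. Il6st and Stat3 overlapped between ER whole-cell libraries on this scale. Neighbours in these orders depend on the length used: per kilobase of the principal transcript, Lifr (34.8) was above Il6st (31.8) and Stat3 (17.3) above Jak1 (13.8) on ER-labelled ribosomes. Both receptor chains stood above Jak1 and Stat3 on ER-labelled ribosomes and below them on cytosol-labelled ribosomes with either length.

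Hydrophobic segments of the encoded proteins sort 14134 of the 16221 tested genes into classes (the other 2087 had no protein matched), and each of the 6 genes was set beside its class in ER over cytosol ribosome-bound RNA. Among 983 genes with an N-terminal segment and 1 further segment the median log2 ratio was 1.50 (quartiles 0.99 and 1.91), with Lifr (1.92) at the 76th percentile and Il6st (1.61) at the 57.5th. Among 1649 genes with an N-terminal segment alone the median was 1.02 and the quartiles lay at 0.04 and 1.75, and Lif (0.49) was at the 38.4th percentile. Among 8557 genes with no segment the median was -0.12 (quartiles -0.25 and 0.03), with Jak1 at the 78.6th, Stat3 at the 80.9th and Socs3 at the 89.7th percentile. All 3 soluble components lay above the upper quartile of their class, though only Socs3 passed the test.

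**Figure D4:**
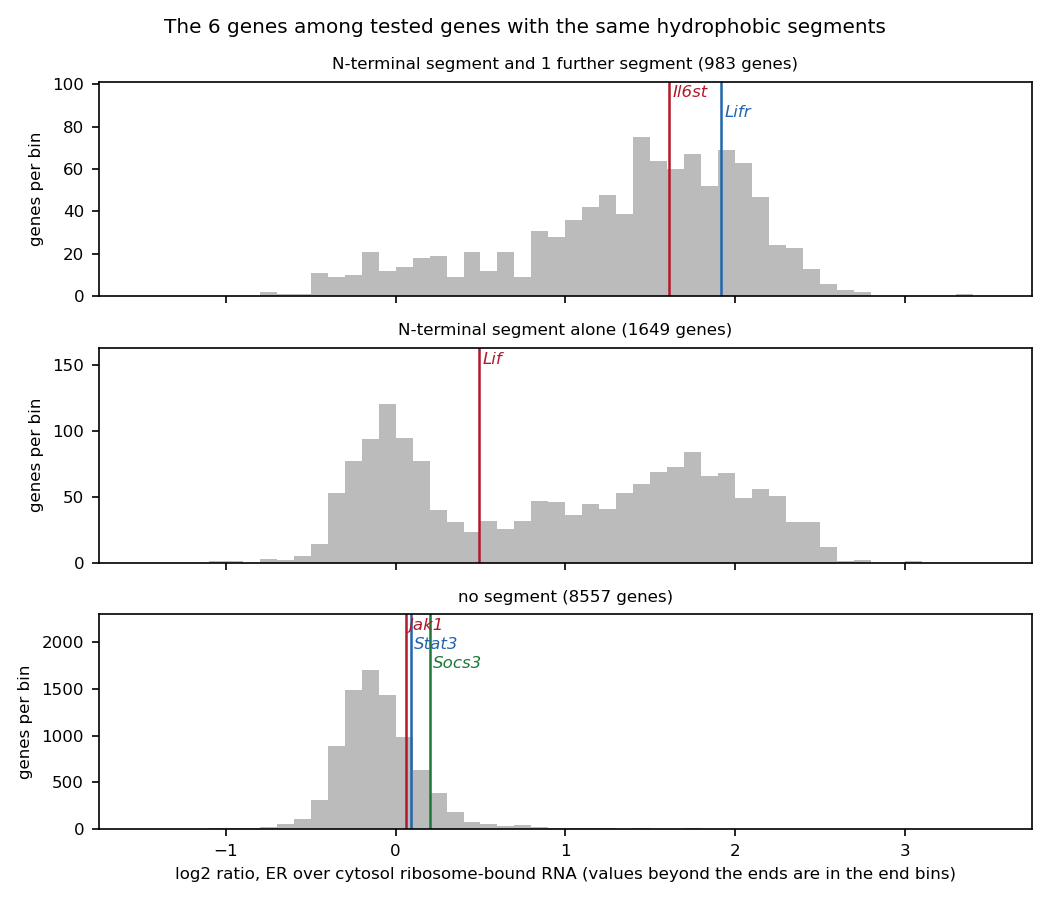
Number of tested genes by log2 ratio of ER over cytosol ribosome-bound RNA, in 3 classes of encoded protein by hydrophobic segments, with lines at the 6 genes. Lifr (1.92) and Il6st (1.61) lie in the main peak of their class, Lif (0.49) lies between the 2 peaks of genes with an N-terminal segment alone, and Jak1, Stat3 and Socs3 (0.06 to 0.20) lie on the right side of the peak of genes with no segment.

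Most other receptors of the cytokine family that were tested were also higher on ER-labelled ribosomes. Of 22 listed, 17 passed the filter, and 15 of these were higher and 0 lower on ER-labelled than on cytosol-labelled ribosomes, with a median log2 ratio of 1.74. Over all tested genes 29.1% were higher and 24.6% lower, with a median of 0, and with cytosolic scaling 34.6% and 13.9%, with the median shifted by 0.094. Prlr, the prolactin receptor, had the largest rise, 2.14 (SE 0.42), at only 0.78 ± 0.244 CPM on ER-labelled ribosomes and 0.173 ± 0.0695 CPM on cytosol-labelled ones (SD, n = 3 each). Il10rb, a chain of the interleukin-10 receptor, was at 2.04 (SE 0.183). Ifnar1, a chain of the type I interferon receptor and the most abundant of the list, had 80.5 ± 2.65 CPM on ER-labelled ribosomes and 22.5 ± 0.578 CPM on cytosol-labelled ones (SD, n = 3 each; log2 ratio 1.84, SE 0.0512). The receptors not called were Epor (0.35) and Il10ra (0.38).

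The receptors that pair with gp130 were looked at for that role after their values were known. Cntfr, the GPI-anchored chain for ciliary neurotrophic factor, had 47.2 ± 2.53 CPM on ER-labelled ribosomes and 13.2 ± 0.995 CPM on cytosol-labelled ones (SD, n = 3 each; log2 ratio 1.84). Il11ra1 had 27.9 ± 0.994 and 7.31 ± 0.795 CPM in the same groups (SD, n = 3 each; log2 ratio 1.93), and Il27ra 8.43 ± 1.31 and 2.46 ± 0.456 CPM (log2 ratio 1.78). Il6ra, the interleukin-6 receptor, was scarcer, with 2.62 ± 0.484 CPM on ER-labelled ribosomes and 1.33 ± 0.127 CPM on cytosol-labelled ones (SD, n = 3 each; log2 ratio 0.97, SE 0.23). Osmr, the chain that can stand in for Lifr with oncostatin M, was below the filter at 0.299 and 0.139 CPM.

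Of the further ligands Clcf1, Ctf1, Osm and Il11 passed the filter and were not called, with ratios from -0.17 to 0.28, and Osm and Il11 were under 1 CPM on average in every group. Il6 and Cntf were below the filter.

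The 3 other Janus kinases were all lower on ER-labelled ribosomes, with a median of -0.20, beside 24.6% of all tested genes lower. With cytosolic scaling 1 of 3 was still called lower (median -0.11), beside 13.9% of all tested genes. Jak3, the most abundant of them, had 49.7 ± 1.45 CPM on ER-labelled ribosomes and 58.3 ± 3.13 CPM on cytosol-labelled ones (SD, n = 3 each; log2 ratio -0.23, SE 0.0522), Jak2 was at -0.20 and Tyk2 at -0.18. Among the other STATs, Stat6, the most abundant, was lower (-0.28, SE 0.0452), and Stat2, Stat4, Stat5a and Stat5b were not called, with ratios of -0.10 to 0.09.

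Inhibitors other than Socs3 were lower or not called. Of 11 SOCS and PIAS genes 6 were lower and 0 higher on ER-labelled ribosomes (median -0.13), beside 24.6% and 29.1% of all tested genes. With cytosolic scaling 4 were lower and 0 higher (median -0.04), beside 13.9% and 34.6% of all tested genes. All 4 PIAS genes, which encode SUMO ligases that bind STATs, were among the lower ones: Pias3 at -0.38 (SE 0.0551), Pias1 at -0.36 (SE 0.0539), and the abundant Pias2 at -0.22, with 113 ± 2.71 CPM on ER-labelled ribosomes and 131 ± 1.47 CPM on cytosol-labelled ones (SD, n = 3 each). Socs1, Socs4, Socs5, Socs6 and Cish were not called, with ratios of -0.02 to 0.13.

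Adaptors and phosphatases that act on the receptor tails were lower for 9 of 11 and higher for 0 (median -0.30), beside 24.6% and 29.1% of all tested genes. With cytosolic scaling 6 were lower and 1 higher (median -0.20), beside 13.9% and 34.6%. Ptpn1, a phosphatase that dephosphorylates Janus kinases, had the largest fall, -0.37 (SE 0.0495), followed by the related Ptpn2 at -0.32 (SE 0.0452). Gab1, a docking protein and the most abundant of the list, had 202 ± 3.79 CPM on ER-labelled ribosomes and 215 ± 5.52 CPM on cytosol-labelled ones (SD, n = 3 each; log2 ratio -0.09, SE 0.0353).

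Known targets of Stat3 were lower for 7 of 12 and higher for 2 (median -0.15), beside 24.6% and 29.1% of all tested genes. With cytosolic scaling 3 were lower and 2 higher (median -0.06), beside 13.9% and 34.6%. Fos had 55.4 ± 6.90 CPM on ER-labelled ribosomes and 37.2 ± 4.48 CPM on cytosol-labelled ones (SD, n = 3 each; log2 ratio 0.58, SE 0.0805), and Junb, its partner in AP-1, was at 0.28 (SE 0.0675). Without ER ribosome-bound replicate 3 only 1 target was called higher, and DESeq2 called 1 higher and 6 lower. Libraries of both pools overlapped for Junb (72.0 to 90.0 CPM at the ER against 63.2 to 74.7 CPM). For Fos replicate 2 was the highest ER and the lowest cytosol library. Bcl3 had the largest fall at -0.23 (SE 0.0909), though its libraries overlapped too (30.9 to 38.9 CPM at the ER against 35.5 to 43.6 CPM). The pluripotency factor Klf4, the most abundant, had 253 ± 13.0 CPM on ER-labelled ribosomes and 286 ± 7.55 CPM on cytosol-labelled ones (SD, n = 3 each; log2 ratio -0.18, SE 0.0379).

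**Figure D5:**
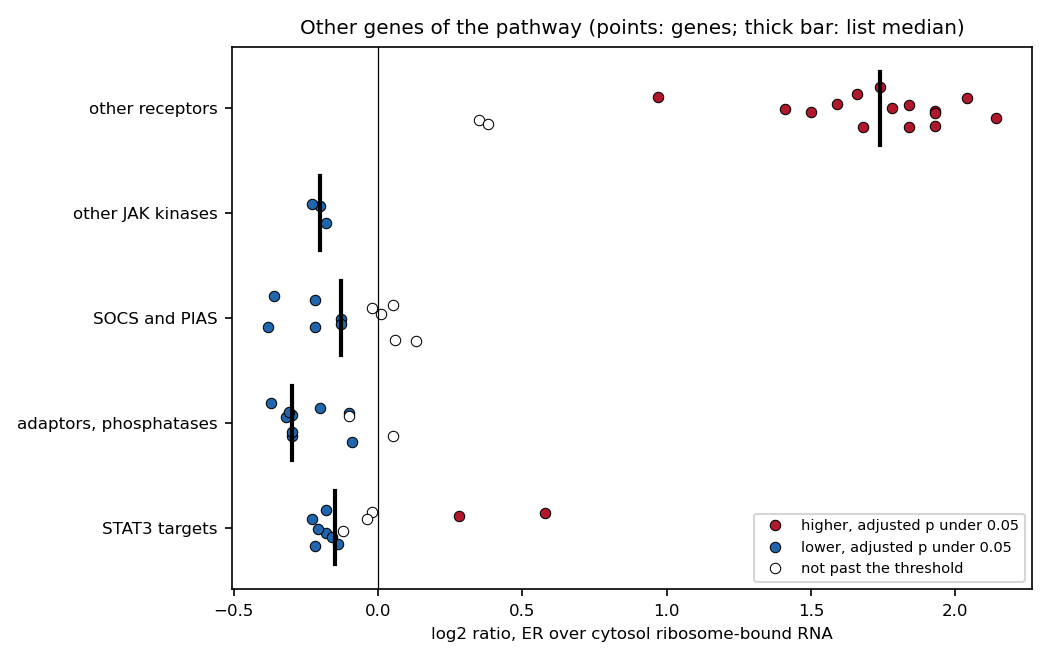
Log2 ratio of ER over cytosol ribosome-bound RNA for receptors, kinases, inhibitors, adaptors and phosphatases, and Stat3 targets that passed the filter (points, spread vertically for visibility), filled where past the threshold, with a thick bar at each list's median. Receptors lie around a median of 1.74 and the medians of the other lists shown lie between -0.30 and -0.13 (-0.20 to -0.04 with cytosolic scaling).

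Receptors were also set against whole-cell RNA. On ER-labelled ribosomes 16 of 17 were higher and 0 lower than in ER whole-cell RNA (median 1.27), beside 32.5% and 30.6% of all tested genes, led by Il11ra1 at 1.75 (SE 0.0836). With cytosolic scaling it was again 16 and 0, beside 51.9% and 13.7%. On cytosol-labelled ribosomes 0 were higher and 7 lower than in cytosol whole-cell RNA (median -0.37), led by the growth hormone receptor Ghr at -0.84 (SE 0.153). The 0 of 17 higher stand beside 20.8% of all tested genes. The 7 of 17 lower stand beside 33%, a share not far from theirs. With cytosolic scaling 0 were higher and 5 lower, beside 33.2% and 23.1%. Without cytosol whole-cell replicate 2, 1 receptor was called higher. Ifnar1 was at 1.21 (SE 0.0492) over ER whole-cell RNA and -0.62 (SE 0.0555) over cytosol whole-cell RNA. Both Lifr (0.93) and Il6st (0.55) were below the list's median in the first of these comparisons and also below it in the second (-0.97 and -1.08).

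The Stat3 targets included genes far above their whole-cell level in both pools. Junb had 82.0 ± 9.18 CPM on ER-labelled ribosomes and 40.5 ± 2.26 CPM in ER whole-cell RNA (log2 ratio 1.02, SE 0.0721), and 67.6 ± 6.27 CPM on cytosol-labelled ribosomes and 38.8 ± 5.02 CPM in cytosol whole-cell RNA (log2 ratio 0.80, SE 0.0726; SD, n = 3 each). Myc was at 0.74 in both comparisons (SE 0.101 and 0.098). Like Socs3, these mRNAs were higher among ribosome-bound reads with either target. The pluripotency factor Tfcp2l1 was lower in both, at -0.56 (SE 0.0419) on ER-labelled and -0.35 (SE 0.0414) on cytosol-labelled ribosomes. Of 12 targets, 6 rose and 3 fell on ER-labelled ribosomes, beside 32.5% and 30.6% of all tested genes. With cytosolic scaling it was 9 and 3, beside 51.9% and 13.7%. On cytosol-labelled ribosomes 8 rose and 3 fell, beside 20.8% and 33% of all tested genes, and 8 and 2 with cytosolic scaling, beside 33.2% and 23.1%.

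The kinases were lower than whole-cell RNA as Jak1 was on ER-labelled ribosomes for 3 of 3 (1 of 3 with cytosolic scaling), with Tyk2 at -0.55 (SE 0.0588). On cytosol-labelled ribosomes 1 of 3 was lower, Tyk2 at -0.36 (SE 0.0569), beside 33% of all tested genes. Of the STATs, Stat4 had the largest fall with either target, -1.09 (SE 0.149) on ER-labelled and -0.97 (SE 0.146) on cytosol-labelled ribosomes. Among the 11 listed SOCS and PIAS genes, ER-labelled ribosomes held 2 at a higher and 8 at a lower level than whole-cell RNA, but 4 and 3 with cytosolic scaling, with Socs7 at -0.71 (SE 0.0472) and Socs1 at 0.40 (SE 0.108). Only 1 was higher without ER ribosome-bound replicate 1 or 3. For adaptors and phosphatases on ER-labelled ribosomes 1 was higher and 8 lower of 11, but 3 and 2 with cytosolic scaling, with Ptpn11 at -0.43 (SE 0.0391) and Grb2 at 0.13 (SE 0.04). For ER-labelled ribosomes over ER whole-cell RNA the shares of all tested genes were 32.5% higher and 30.6% lower, and 51.9% and 13.7% with cytosolic scaling.

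Relative to cytosol whole-cell RNA, 0 of the 11 SOCS and PIAS genes rose and 4 fell on cytosol-labelled ribosomes, but 6 and 2 with cytosolic scaling, with Socs4 at -0.58 (SE 0.0741). Leaving out 1 library gave up to 3 higher, and 2 lower without cytosol whole-cell replicate 2. Adaptors and phosphatases were higher for 4 and lower for 4 of 11, but for 7 and 0 with cytosolic scaling, with Grb2 at 0.46 (SE 0.0392) and Sos1 at -0.23 (SE 0.0489). Leaving out cytosol whole-cell replicate 2 gave 0 lower, cytosol ribosome-bound replicate 2 gave 1, and 7 other libraries gave 2 each. Over all tested genes 20.8% were higher and 33% lower, and 33.2% and 23.1% with cytosolic scaling.

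The genes whose pattern over the 4 groups was nearest to each of the 6 were found by Euclidean distance. It was taken between group means of log2 CPM, each centred on the gene's own mean. The search covered 9611 other tested genes with a mean of at least 10 CPM. For Lif it covered 9612, because its own mean of 6 CPM was under that limit. Nearest to Lifr were Rnf145 (distance 0.0347), a membrane-bound ubiquitin ligase, the membrane glycoprotein Atrn (0.0531) and the ER calcium pump Atp2a3 (0.0659). Nearest to Il6st were the receptors Il17ra (0.0429) and Notch1 (0.0513) and the ER calcium pump Atp2a2 (0.06). Jak1 had closer neighbours, Dip2c (0.00836), Zfp367 (0.00981) and the cohesin regulator Pds5a (0.0126). Lif was nearest to Golga7 (0.0492), Tsn (0.051) and Slc35a4 (0.0529), Stat3 to Klhl42 (0.0498), Prpf39 (0.0527) and Gm10451 (0.056), and Socs3 to Cdc42ep2 (0.0585), Gadd45g (0.0627) and Cnpy1 (0.0726). With 4 group means over so many genes, these distances are a description.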

How the data were processed

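The authors deposited 1 file per library, holding raw read counts for each Ensembl gene with no normalization. Per the submitters' processing notes, STAR 2.7.9a, HTSeq 0.11.2 and DESeq2 were used on GRCm39. Not given in the sources used here are the annotation release, the strand setting and how multimapped reads were treated. Poly(A) libraries were made with a directional kit, per the labels' protocols. Class totals for reads outside genes (8.75% to 12.54% of reads) were left out. Symbols, transcript lengths, coding sequences and overlaps came from GENCODE M21 on GRCm38, which matched 52083 of 55416 identifiers (the other 3333 took 0.41% of counts). No coordinates are given because the builds differ.

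The counts were analysed with edgeR 4.0.16 in R 4.3.3: filterByExpr by group, TMM factors, 1 fit of the 4 groups over 12 libraries, quasi-likelihood tests and Benjamini-Hochberg adjustment over 16221 genes at 0.05. The SE was taken as the size of the log2 ratio divided by the root of F, and intervals cover 95% on the normal scale. They include counting error and spread between replicates, from which noise of PCR amplification was not separated. The biological coefficient of variation was 3.61%. Replicates differed by more than counting noise (chi-square per gene 2.04 to 8.41). The procedure was also run on counts simulated from the fit. Far fewer genes were changed there than differ between these pools, so that run does not test the scaling. Alternatives were RLE factors, cytosolic scaling, mitochondrially encoded genes left out, 2 other filters, DESeq2 1.42.0, 2 groups only, replicate blocks and leaving out each library.

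The 6 genes and all lists were chosen with earlier results of these data known. Of each list the text names the largest rise and fall past the threshold, up to 4 genes, and the gene with the highest mean CPM, and the 3 nearest genes of each of the 6. Genes named because they were not called, the PIAS genes as a group and the partners of gp130 were chosen after their values were seen. Some genes of the lists are not reported here.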

Additional observations from a re-analysis of the deposited data

Results flagged for a closer look

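The enrichment over whole-cell RNA differed between the ER and cytosol pools for 3 of the 6 genes, by edgeR's quasi-likelihood test of the difference itself. Lifr, the LIF receptor chain, had 0.93 on ER-labelled and -0.97 on cytosol-labelled ribosomes (log2), a difference of 1.9 (SE 0.0662, adjusted p = 8.23e-24). Il6st, the gp130 chain, had 0.55 on ER-labelled and -1.08 on cytosol-labelled ribosomes, a difference of 1.63 (SE 0.0716, adjusted p = 7.9e-21). Lif, the ligand, had 0.44 on ER-labelled and 0.01 on cytosol-labelled ribosomes, a difference of 0.43 (SE 0.17, adjusted p = 0.0386), which was lost in 13 of 20 alternatives (0.27 to 0.54, adjusted p up to 0.234). All 3 ER ribosome-bound libraries lay above all 3 ER whole-cell libraries for each of these genes. The share of all tested genes separated in this way was not counted, and 32.5% were called higher in that comparison. Of all tested genes 43.4% had a difference of enrichments past the threshold.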

How the results depend on the processing

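Over 612 values of the 6 genes in 5 comparisons under alternatives, 535 kept their direction and side of the threshold, 23 lost a call, 8 gained one and 46 changed sign. The sign changes were all in ratios that had not passed the test. Lifr and Il6st kept all their calls in the comparisons that involve ribosome-bound RNA, as did Lif in ER over cytosol ribosome-bound RNA (0.32 to 0.59) and over ER whole-cell RNA (0.33 to 0.68). Socs3 in ER over cytosol ribosome-bound RNA lost its call in 10 of 20 (0.02 to 0.29), among them RLE factors (0.16, adjusted p = 0.0562), mitochondrially encoded genes left out (0.14) and DESeq2 (0.16, adjusted p = 0.336). The Lif difference of enrichments was 0.39, 0.38, 0.37 and 0.39, not called, with RLE factors, mitochondrially encoded genes left out, no filter and DESeq2.

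With cytosolic scaling, genes called lower in ER over cytosol ribosome-bound RNA numbered 2253 in place of 3983. For ER ribosome-bound over ER whole-cell RNA there were 8413 higher and 2221 lower (5271 and 4967 with TMM), for cytosol ribosome-bound over cytosol whole-cell RNA 5384 higher (3380), and for the difference of enrichments 1340 lower (3010). Stat3 then changed sign to 0.12, 0.09 and 0.03 in these last 3 comparisons. With no filter Jak1 was 0 in ER over cytosol ribosome-bound RNA. In cytosol ribosome-bound over cytosol whole-cell RNA Stat3 was 0.01 with mitochondrially encoded genes left out, no filter and 2 groups only. In the difference of enrichments, Jak1 was 0 with RLE factors and DESeq2 and -0.02 with mitochondrially encoded genes left out and no filter, and Socs3 was -0.01 with RLE factors, -0.02 with DESeq2 and with mitochondrially encoded genes left out, and -0.03 with no filter. Of the 6 genes 2 in place of 1 were lower over ER whole-cell RNA with no filter, 2 groups only and the lysate block, and 7 genes were lower between whole-cell groups with no filter. The cause was not tested.

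Leaving out 1 library at a time, the ratios of ER over cytosol ribosome-bound RNA ranged from -0.03 to 0.08 for Jak1 and -0.05 to 0.16 for Stat3. Over cytosol whole-cell RNA they ranged from -0.13 to 0.08 for Stat3 and -0.05 to 0.14 for Lif. Between whole-cell groups they ranged from -0.03 to 0.05 for Lifr and -0.09 to 0.01 for Il6st, and the difference of enrichments from -0.05 to 0.05 for Jak1 and -0.14 to 0.07 for Socs3. Of the 6 genes 1 to 2 were lower over ER whole-cell RNA, and 0 to 2 genes were lower between whole-cell groups. Leaving out 9 of the 12 libraries, one at a time, shifted the median ratio of ER over cytosol ribosome-bound RNA by -0.058 to -0.065.

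The replicate numbers were not shown to pair samples: same-numbered deviations correlated at -0.01, 0.26 and 0.27 between ER ribosome-bound and ER whole-cell libraries and at 0.1, 0.1 and 0.06 in the cytosol pair. A block for the number changed no call of the 6 genes. A block for the lysate gave Stat3 over ER whole-cell RNA -0.13 with an adjusted p of 0.00223 in edgeR's test, and changed no other call of the 6 genes. Depth limits Lif most, with 118 to 218 reads per library.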

Other observations

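The arrangement of replicates in Stat3 and Socs3 was singled out after the values were seen. In both genes replicate 2 was the highest library in the ER ribosome-bound and ER whole-cell groups and the lowest in the cytosol ribosome-bound and cytosol whole-cell groups. The highest library of a group was 1.18 to 1.23 times the lowest for Stat3, and at most 1.28 times for Socs3. Of the 12 Stat3 targets, 5 (Klf4, Tfcp2l1, Pim1, Fos and Bcl3, or 41.7%) had the same arrangement, against 442 of 9612 tested genes with a mean of at least 10 CPM (4.6%). Bcl3 had the widest spread of the 5, with 1.48 times between ER whole-cell libraries. Over all 9612 genes the deviations of replicate 2 correlated at -0.18 to -0.27 between ER-targeted and cytosol-targeted groups. The opposite position of replicate 2 was therefore not confined to Stat3, Socs3 and these targets. The cause was not tested, and the labels give no date or batch that separates these libraries. Per the design text whole-cell RNA came from the lysates used for purification, without a label that ties them by number.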
